A study of Populus trichocarpa
Populus deltoides with 74 samples.

Results

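The 19 oligonucleotides described here were the clone oligos whose hybridisation signal was higher in poplar shoot tips than in lateral vegetative buds. For each oligo, d was the mean of the 4 vegetative bud groups of unstated sex minus the mean of the 12 shoot tip groups, with every group weighing equally, and a clone oligo was a member where d was -0.8 or less. The members were thus chosen by their measured levels in these buds and tips. The table holds 217 oligos, of which 34 carry a gene name and 183 carry only a clone identifier, so the members were 10.4% of the clone oligos. No gene name in the sources used here matched any of these identifiers. The members are therefore named by identifier alone, and neither a gene, a role nor a sequence is given for them.

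All trees were wild type poplar, entered by the submitters under both Populus trichocarpa and Populus deltoides. The study was set up to follow flowering and maturation. Total RNA was labelled with the red dye Cy5 and hybridised to oligo arrays printed in the wells of 96-well plates. There were 37 RNA isolations, each read in 2 wells, which gave 74 arrays in 19 groups. Lateral vegetative buds came from trees aged 1, 2, 5 and 6 years, and floral buds from trees aged 6 years, in each case with no sex or month in the labels. Male floral buds and male lateral vegetative buds came from trees aged 6 years. The remaining groups were shoot tips labelled female, taken in May and in June. Those labelled only as shoot tips, called upper tips here, came from trees aged 1, 2, 5 and 6 years, and those labelled basal came from trees aged 5 and 6 years. Each group had 2 isolations, lettered a and b, except the June upper tips of age 5, for which only isolation b was analysed here. The design text treats the isolations as biological replicates, but nothing states that they came from separate trees, so the errors below measure the spread between isolations.

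A shoot tip holds the apical meristem with young leaves and stem that are forming from it. A lateral vegetative bud encloses a meristem and leaf primordia in the axil of a leaf, and in trees such as poplar it can stay closed and dormant for months. As poplars mature, some lateral buds form flowers in place of leafy shoots. Auxin made in growing tips and carried down the stem by efflux proteins is a well studied influence on whether lateral buds grow. RNA was taken from whole organs, so fewer cells of a type and less RNA per cell cannot be told apart in any of the values below.

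Levels are on the log2 scale after quantile normalisation, with wells averaged. The base of the logarithm was read from the range of the deposited values, 1.10 to 16.25, since no source used here states it. Array medians lay between 8.05 and 8.79 before normalisation, and each array had values for 206 to 217 oligos. The 2 wells of an isolation correlated with a median of 0.966 across oligos. Per oligo, the median absolute difference between the wells had a median of 0.25 over all oligos. Among members it ran from 0.14 for UM54TC12 to 1.04 for R43G01. It was 0.93 for UM69TF07, 0.68 for R46E01, 0.64 for R22G10 and 0.55 for V059D02, so these were read less evenly. Of the 1406 member values, 19 were missing, spread over 9 members, and no member lacked an isolation. Brightness differs between oligos for reasons other than RNA amount, so levels are compared between samples only and never between oligos. The floral tissue markers matched the bud labels in part. PTAG1, PTAG2, PTAP1-1B, PTAP1-2A and PTLF were higher in every floral bud isolation than in every vegetative bud and tip isolation, whereas for PTD, a DEFICIENS homolog, the lowest floral isolation at 7.50 lay below the highest tip isolation at 7.61.

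Isolations were grouped by the differences between their 2 wells. The number of sets was fixed at 5, and the 37 isolations fell into sets of 7, 10, 9, 2 and 9. The mean correlation of an isolation with the rest of its set ran from 0.11 to 0.64, so some were placed weakly. The sets were derived from the data and no label describes them. They are called hybridisation sets here, although no label gives a hybridisation batch. Because they align in part with organ and month, results within a set are given beside those they touch. Organ, sampling month and the sex label cannot be told apart between buds and tips, since the tips were labelled female and the buds of unstated sex carried no month.

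In the contrast that chose the members, d ran from -2.29 to -0.81 with a median of -1.52, against a median of 0.02 over all 217 oligos. These values are a description of the choice and carry no test. A009P50U had the lowest d. Its 8 bud isolations lay between 8.03 and 9.91 with a median of 8.71, and its 23 tip isolations between 9.54 and 12.72 with a median of 10.62. M116E04, with d of -2.12, lay between 7.59 and 10.58 in buds, median 8.33, and between 9.77 and 11.43 in tips, median 10.59. For both oligos a single bud isolation, isolation a of age 1, reached into the range of the tips. V003A12, with d of -1.84, lay between 4.41 and 6.17 in buds, median 5.89, and between 5.37 and 8.49 in tips, median 7.71. Its overlap came from the tip side, because isolation a of the June upper tips of age 6 read 5.37 where isolation b read 7.64. R07C07, with d of -1.77, lay between 7.31 and 8.69 in buds, median 8.12, and between 6.29 and 12.05 in tips, median 9.81. R07C07 thus had tip isolations both far above and below its buds.

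The brightest member in tips was R26F09, with a mean over tip groups of 13.07 and over bud groups of 11.38, and the dimmest was R46E01, with 5.36 and 4.39. Just inside the threshold were F003P03Y, with d of -0.93 from 7.56 in buds and 8.50 in tips, and V021F11, with d of -0.81 from 8.80 and 9.61. Just outside were V063C08 and F101P86Y, both with d of -0.79, with bud and tip means of 9.95 and 10.74 and of 10.23 and 11.02. Among named oligos left out by the rule, 4 of 34 had d of -0.8 or less. These were PTTPIN3, named for the PIN auxin efflux carriers, at -3.55, and the Aux/IAA auxin response oligos PttIAA1, PttIAA4 and PttIAA5, at -2.0, -1.89 and -0.94.

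None of the 19 members had all 8 bud isolations below all 23 tip isolations, and over all oligos 0.461% did. Without isolation a of the age 1 buds, 2 of 19 members were free of overlap, against 2.3% of all oligos. That isolation was the highest of the bud isolations for 9 members. It read 11.16 for R74E10, where isolation b of the same age read 8.56, and it read 10.58 for M116E04, where isolation b read 8.80. Since the rule used this contrast, nothing is read from these shares.

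The size of the bud to tip difference depended on which tips were taken. Against the June upper tips the median over members was -2.0, with 19 of 19 lower in buds and 18 at -0.8 or less, a size reached by 16.6% of all oligos. Against the May upper tips it was -1.58, with 19 lower and 17 at -0.8 or less, against 15.7% of all oligos. The basal tips lay closer to the buds. Against the May basal tips the median was -0.98, with 16 lower and 11 at -0.8 or less, against 12.4% of all oligos. Against the June basal tips it was -0.55, with 16 lower and 7 at -0.8 or less, against 9.22% of all oligos. The 7 bud and 3 June basal isolations that shared a hybridisation set gave a median of -0.54. In that set 15 members were lower and 7 were at -0.8 or less. The share of all oligos was not computed there, nor for the other counts of members lower in buds. Nothing is read from those counts. The members were not alike in this. M116E04 was lower in buds than in basal tips by about as much as in d, at -2.39 against June and -2.24 against May, and so was V003A12, at -2.14 and -2.06. R74E10 was higher in buds than in June basal tips, by 2.02, and level with May basal tips, at 0.04, so its place among the members came from the upper tips. UM91TD06 was likewise higher in buds than in June basal tips, by 0.72, but lower than in May basal tips, at -1.01. All of these values belong to the rule's contrast and are given with no test.

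The spread of the members among tip groups and among bud groups is given as a description. The range of the 12 tip group means had a median of 2.54 over members, from 1.27 to 6.13, against a median of 1.45 over all oligos, while the range of the 4 bud group means had a median of 1.30, from 0.47 to 3.43. In 18 of 19 members the range was wider in tips, but 12 groups tend to give a wider range than 4. The share over all oligos was not computed, so nothing is read from this count. The comparisons that follow contrast tips with tips or buds with buds. Each was tested with limma in a fit of all 19 groups, two-sided, with Benjamini-Hochberg adjustment over all 217 oligos, and an oligo was called where its adjusted p was under 0.05. Errors on differences are standard errors from that fit. Several comparisons share isolations, so their counts are not independent of each other.

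Basal tips were compared with upper tips of the same month at ages 5 and 6, with 8 basal and 7 upper isolations. The rule averaged 8 upper and 4 basal groups, so an oligo high in upper tips alone could become a member, and the members were in part chosen for high upper tips. Their counts and differences by position are therefore a description, from which nothing is read. Of the 19 members, 12 fell in basal tips, 1 rose and 6 did not pass. Over all oligos 17.1% were lower and 29% higher in basal tips. The median difference was -1.21 over members and 0.12 over all oligos.

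R74E10 had the largest fall. Its June basal isolations read 5.22 and 6.36 at age 5 and 6.65 and 6.14 at age 6, and its May basal isolations 8.67 and 9.41 and 7.01 and 7.22. Its June upper isolations read 11.92 at age 5 and 12.22 and 11.52 at age 6, and its May upper isolations 12.56 and 11.23 and 7.65 and 8.28. The June groups stood far apart, while in May the upper tips of age 6 lay below the basal tips of age 5. Over both months the difference was -3.83 ± 0.33, with basal lower in 4 of 4 matched pairs of groups.

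R07C07 followed with -2.81 ± 0.15, also lower in 4 of 4 pairs. Its basal isolations read 8.59, 9.35, 8.60 and 8.63 in June and 6.29, 7.09, 8.91 and 8.87 in May, in order of age. Its upper isolations read 11.32, 11.76 and 11.25 in June and 11.74, 12.05, 9.53 and 9.81 in May. No basal isolation of R07C07 reached any upper isolation. UM54TC12, chosen after its values were seen, had a difference of -2.69 ± 0.11. It lay within 0.05 of the top of the normalised scale, 14.26, on 19 arrays, so that scale bounds its levels in upper tips. Its upper isolations of June ages 5 and 6 and of May age 5 all read 14.26, with no spread between them. The fit uses a single spread per oligo, so the errors of UM54TC12 are held down in every comparison. In the deposited values its d was -2.59, against -1.63 after normalisation.

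The other 9 members that fell were, from the largest difference to the smallest, R35H10 at -2.32 ± 0.17, R26F09, A009P50U, R43G01, UM69TF07, UM91TD06, R54A05, R46E01 and V021F11 at -0.49 ± 0.09. R26F09 read 11.08, 11.72, 11.66 and 11.25 in June basal tips and 13.32, 13.70 and 13.70 in June upper tips of the same ages. Its May basal tips read 11.58 and 11.66 at age 5 but 13.13 and 13.03 at age 6, close to the May upper tips. The members that did not pass were M116E04, V003A12, I017P76P, V059D02, R48C03 and F003P03Y.

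R22G10 was the member that rose, by 0.73 ± 0.27, higher in basal tips in 4 of 4 pairs. Its basal isolations lay between 6.50 and 7.78 and its upper isolations between 5.05 and 6.87, so the groups overlapped. Dropping a single isolation ended the call in 5 of 14 cases, and it also ended as deposited, with arrays centred on their median, with the set as a term and within both sets, where the difference was 0.18 and 0.41.

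Within the hybridisation sets, position could be compared only at age 5, with 1 basal and 1 upper isolation in June and with 1 basal and 2 upper isolations in May. R74E10 differed there by -6.70 in June and by -3.22 in May, and R07C07 by -2.73 and -5.61. A single isolation in an arm has no spread of its own, so these values are given with no error or test. With the set as a term in the fit of all groups, R74E10 differed by -4.53 and R07C07 by -3.39, and 10 members were lower among 67 called oligos of 217. That fit rests on the 2 tip groups whose isolations fell in different sets, the basal tips of age 5 in June and in May. Isolation b of the May group had a mean correlation of only 0.11 with the rest of its set.

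Over the members, the median gap between basal and upper tips was wider in June. The rule used the same tip groups, and the members were in part chosen for high upper tips. Their counts and differences here are therefore a description too, from which nothing is read. The median over members was -2.05 in June and -0.58 in May, with all oligos at 0.14 and 0.11. Tested as a difference of differences, June minus May, 6 members fell, 0 rose and 13 did not pass, against 10.6% lower and 13.8% higher over all oligos. The median was -0.62 over members and 0.05 over all oligos. By age, the May gap was -1.26 at age 5 and -0.08 at age 6, and the June gap -1.52 and -1.41, so the smaller May gap lay at age 6. R74E10 differed most, by -3.95 ± 0.67 (adjusted p = 0.000162), from a gap of -5.80 in June and -1.85 in May. V059D02 differed by -2.37 ± 0.84 (adjusted p = 0.0435), from -1.30 in June and 1.07 in May, a change of sign. UM91TD06 went from -2.35 in June to -0.26 in May, and R46E01 from -2.08 to -0.03. The UM91TD06 basal isolations read 9.16, 9.71, 9.14 and 8.76 in June and 10.43, 11.06, 10.98 and 11.25 in May, with no overlap. R35H10 and R26F09 were the remaining calls, at -1.17 ± 0.34 and -0.73 ± 0.22, each with that sign at 1 of 2 ages. The V059D02 call ended whichever of 14 isolations was dropped, and with the set term. The count of members that fell was 3 without isolation b of the June basal tips of age 6. With the set as a term it was 4, among 23 called oligos of 217. The count was 9 with the values as deposited, 9 with arrays centred on their median and 9 without age 5. In those fits 59, 51 and 55 of all oligos were called.

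June and May tips were compared over 6 matched groups, with 11 June and 12 May isolations. Here the members moved in both directions, with 5 higher in June, 5 lower and 9 that did not pass. Over all oligos 17.1% were higher and 20.3% lower. The median difference was 0.24 over members and -0.02 over all oligos, so the members' share of calls was near or somewhat above that of the table in each direction. With the values as deposited, or centred on each array's median, 6 were higher and 4 lower.

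UM69TF07 rose by 1.30 ± 0.23 (adjusted p = 0.000136), higher in June in 6 of 6 matched groups, a call lost in a fit without age 1 that held the hybridisation set as a term (adjusted p = 0.534). Its upper tip isolations at ages 1, 2, 5 and 6 read 6.30 and 9.08, 7.85 and 7.21, 9.10, and 7.96 and 8.12 in June, against 5.88 and 5.59, 6.73 and 7.21, 7.39 and 7.65, and 5.55 and 5.79 in May. Its basal isolations lay between 6.17 and 6.74 in June and between 5.47 and 6.10 in May. The months were apart in the basal tips, and overlapped in the upper tips because ages 2 and 5 in May reached the lower June values. F003P03Y fell by 0.43 ± 0.12 (adjusted p = 0.00876), lower in June in 6 of 6 groups, from a mean of 8.71 in May to 8.28 in June. Its May isolations lay between 8.04 and 9.32 and its June isolations between 7.54 and 8.92, so most of the ranges were shared.

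The other calls higher in June were R35H10, R07C07, UM54TC12 and A009P50U, by 0.73 ± 0.13 to 0.57 ± 0.13. Those lower were V021F11, R26F09, I017P76P and UM91TD06, with differences from -0.55 ± 0.07 to -0.38 ± 0.13. None of these kept 1 sign in all 6 matched groups. The sign held in 5 for R26F09 and I017P76P, in 4 for R35H10, UM54TC12, A009P50U and V021F11, and in 3 for R07C07. For UM91TD06 it held in only 2, the basal tips, while the upper tips were higher in June at every age. The rise in A009P50U, R07C07 and R35H10 lay in part at ages 1 and 6, where the May upper tips were low. For R35H10 the age 6 upper isolations read 12.07 and 11.94 in June and 9.67 and 9.77 in May.

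Month and hybridisation set were closely tied in the tips. The only month comparison within a set held 1 June and 1 May isolation, both basal tips of age 5. F003P03Y differed there by 0.00443 and UM69TF07 by 0.36, values with no spread of their own. Without age 1, 10 members were called, of 76 called oligos among 217. With the set as a term as well, 1 member was called, of 11 called oligos, a drop that the whole table shared. In that fit the difference was 0.88 for UM69TF07 and -0.25 for F003P03Y (adjusted p = 0.762). In the full comparison the set term could not be fitted.

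Older vegetative buds (ages 5 and 6) were compared with younger ones (ages 1 and 2), with 4 isolations in each. In the older buds 9 members fell, 1 rose and 9 did not pass, against 14.3% lower and 15.2% higher over all oligos. The median difference was -0.61 over members and 0.03 over all oligos. Without isolation a of the age 1 buds the members' median was -0.46. The difference was below 0 in 15 of 19 members, and the share of all oligos below 0 was not computed.

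R26F09 fell by 1.56 ± 0.15 (adjusted p = 4.35e-08). Its isolations read 11.66, 12.24, 12.30 and 12.42 at ages 1 and 2, and 10.70, 10.48, 10.81 and 10.40 at ages 5 and 6. The younger and older buds were apart by more than the spread within either. R74E10 fell by 1.91 ± 0.44 (adjusted p = 0.00186), from 11.16, 8.56, 8.72 and 7.85 to 6.53, 6.32, 8.42 and 7.36. Its age groups overlapped, and the difference was -1.26 without isolation a of age 1 and -1.65 ± 0.58 (adjusted p = 0.0743) within a hybridisation set. V021F11 rose by 0.71 ± 0.12 (adjusted p = 0.000112), from 8.39, 8.39, 8.57 and 8.45 to 8.70, 8.58, 9.63 and 9.72. The rise lay mainly at age 6, where both isolations stood above those of every other age, and the call was lost with wells taken as separate arrays (adjusted p = 0.286).

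The other members that fell in older buds were M116E04, R43G01, UM91TD06, UM54TC12, F003P03Y, A009P50U and R35H10, with differences from -1.55 ± 0.27 to -0.61 ± 0.22. M116E04 read 10.58, 8.80, 9.02 and 8.78 in the younger buds and 7.68, 7.59, 7.86 and 7.87 in the older. Every younger isolation exceeded every older one, with isolation a of age 1 the farthest out.

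In the upper tips the same ages were compared within each month. In May, with 4 isolations in each, 2 members rose and 0 fell, against 3.23% higher and 3.23% lower over all oligos. V021F11 rose by 0.48 ± 0.12 (adjusted p = 0.0198), from isolations between 9.55 and 9.86 to isolations between 9.71 and 10.71, a call that ended in 6 of 8 cases when a single isolation was dropped and with wells as separate arrays (adjusted p = 0.61). The other, R07C07, rose by 0.75 ± 0.19 but in only 1 of 2 matched ages. Neither call held when only the May upper tips were fitted, where 2 of all 217 oligos were called. In June, with 3 older and 4 younger isolations, 3 members rose and 1 fell, against 3.69% higher and 4.15% lower.

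R35H10 rose in June by 1.27 ± 0.25 (adjusted p = 0.00314), from 10.75, 11.23, 10.92 and 10.46 to 12.22, 12.07 and 11.94. R54A05 rose by 1.04 ± 0.28 (adjusted p = 0.0207), from 9.97, 9.42, 8.96 and 9.72 to 10.60, 10.56 and 10.47. In both oligos all older isolations exceeded all younger ones. V021F11 fell in June by 0.55 ± 0.14 (adjusted p = 0.0135), from 9.84, 9.91, 9.75 and 10.08 to 9.37, 9.02 and 9.62. Its direction in June was the opposite of that in May tips and in buds. The V021F11 call was lost with wells as separate arrays (adjusted p = 0.568). None of the June calls held when only these groups were fitted, where 2 of 217 oligos were called, or within a hybridisation set, where ages 5 and 6 could be compared with age 2 alone and 1 of 217 was called. The fit of only these groups uses the same group means, so its differences were the same, 1.27 for R35H10 and 1.04 for R54A05. Within the set the differences were 1.42 and 1.21.

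The age difference in buds minus that in upper tips was tested directly. It was below 0 for 11 called members and above 0 for 1, and 7 did not pass, against 11.1% and 12% over all oligos. The median was -1.23 over members and 0.11 over all oligos. R35H10 differed by -1.49 ± 0.28 (adjusted p = 0.000333) and R74E10 by -1.91 ± 0.56 (adjusted p = 0.0138), while V021F11 differed by 0.74 ± 0.15 (adjusted p = 0.00101, and 0.372 with wells as separate arrays, which ends the call). In R35H10 the bud isolations lay between 8.68 and 9.50 at the younger ages and between 8.14 and 8.72 at the older, while its upper tips rose with age in June. R26F09 differed by -1.45 ± 0.18, with an age difference of -0.10 in the upper tips of both months. It lay within 0.05 of the top of the normalised scale on 5 arrays. As deposited, its June upper group means were 14.37 and 13.91 at ages 1 and 2 and 14.19 and 14.65 at ages 5 and 6, so that near-level value depends on the scaling. The other 8 members below 0 were M116E04, R07C07, A009P50U, R54A05, UM54TC12, UM91TD06, R43G01 and I017P76P, from -1.40 ± 0.34 to -0.87 ± 0.26. The call for R74E10 was lost without isolation b of the age 6 buds or isolation a of the age 1 buds. Neither the set term nor a comparison within a set could be fitted here.

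Within the May upper tips the ages did not follow one course. Steps between neighbouring ages were compared after the values had been seen. From age 1 to age 2, with 2 isolations each, 8 members rose and 0 fell, against 10.6% and 9.68% over all oligos. With the values as deposited 11 rose, among 46 called oligos of 217, and with wells as separate arrays 9 rose, among 55. R74E10 rose by 2.59 ± 0.63 (adjusted p = 0.00487), from 9.13 and 8.95 to 12.18 and 11.09, though its adjusted p was 0.080 without isolation a of age 2. R07C07 rose by 2.17 ± 0.27 (adjusted p = 6.08e-06), from 8.85 and 9.03 to 10.79 and 11.43. In both oligos the 2 ages were apart. The other 6 were A009P50U, R35H10, UM54TC12, UM91TD06, R43G01 and R54A05, with rises from 1.95 ± 0.30 to 1.19 ± 0.35.

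From age 5 to age 6, 8 members fell and 1 rose, against 11.1% and 15.7% over all oligos. With the values as deposited 10 fell and 1 rose, among 59 called oligos of 217. With wells as separate arrays 6 fell and 0 rose, among 57. R74E10 fell by 3.93 ± 0.63 (adjusted p = 4.07e-05), from 12.56 and 11.23 to 7.65 and 8.28. A009P50U fell by 2.53 ± 0.30 (adjusted p = 1.48e-06), from 12.42 and 12.72 to 9.94 and 10.14. V021F11 rose by 0.81 ± 0.17 (adjusted p = 0.00112), from 9.85 and 9.71 to 10.71 and 10.48, a call lost with wells as separate arrays (adjusted p = 0.433). The falls of the other 6, R07C07, R35H10, UM69TF07, UM54TC12, R54A05 and R43G01, ran from -2.22 ± 0.27 to -1.15 ± 0.36. Of the 8 members that rose from age 1 to age 2, UM91TD06 was the one not called from age 5 to age 6, at 11.40 and 11.53 and then 10.72 and 11.12. At ages 1 and 6 the May upper tips of R74E10 and A009P50U lay within the range of the basal tips, and at ages 2 and 5 among or near the June upper tips. The 8 May upper isolations belonged to a single hybridisation set.

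Male vegetative buds did not enter the rule. Both male isolations lay within the range of the 8 bud isolations of unstated sex for 13 of 19 members, and both lay below every tip isolation for 4. Their mean was below the lowest tip group mean for 11. The tip isolations and the buds of unstated sex in these counts did enter the rule. No share over all oligos was computed, so nothing is read from the counts. Male buds minus the age 6 buds of unstated sex had a median of 0.02 over members, from -2.15 to 0.98. The members most above were R54A05, at 9.48 and 9.93 in male buds against 8.65 and 8.79, and R22G10, at 6.0 and 5.79 against 4.93 and 5.31. The members most below were R74E10, at 5.11 and 6.37 against 8.42 and 7.36, and UM91TD06, at 8.91 and 8.90 against 9.46 and 9.76. In each of these 4 oligos the 2 male isolations lay on one side of the 2 others.

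Male floral buds were compared with male vegetative buds, with 2 isolations each. In floral buds 1 member rose, 4 fell and 14 did not pass, against 7.37% higher and 12.4% lower over all oligos, and the median was 0.04 over members and -0.08 over all oligos. With the values as deposited, or centred on each array's median, 1 rose and 1 fell. V059D02 read 11.26 and 11.24 in male floral buds, and 6.0 and 5.28 in male vegetative buds, a rise of 5.61 ± 0.79 (adjusted p = 8.64e-06). Its male floral level was above all 23 tip isolations, whose highest was 7.22. This held for 1 member of 19. The share over all oligos was not computed, so nothing is read from that count. Within the hybridisation set that held both groups the adjusted p was 0.0302.

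V021F11 fell in floral buds by 1.54 ± 0.17 (adjusted p = 3.05e-07), from 9.10 and 9.12 to 7.48 and 7.67, a call lost with wells as separate arrays (adjusted p = 0.0889). R22G10 fell by 1.42 ± 0.50 (adjusted p = 0.0486), from 6.0 and 5.79 to 4.66 and 4.29, a call lost whichever of the 4 isolations was left out. In both oligos the 2 bud types were apart by more than the spread within either. Of the other calls, R54A05 fell by 1.08 ± 0.35 and UM54TC12 fell by 0.68 ± 0.21. UM54TC12 read 10.18 and 10.03 in male floral buds against 10.89 and 10.68.

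Between male floral buds and floral buds of unstated sex, with 2 isolations each, limma called no oligo, with 0% higher and 0% lower and a smallest adjusted p of 0.287. At an unadjusted p under 0.05, 25 oligos passed, 1 of them a member. The smallest p among members was for V059D02, with 1.89 ± 0.79 (adjusted p = 0.292), and then R54A05, with 0.67 ± 0.35 (adjusted p = 0.465). For V059D02 the isolations of unstated sex read 11.49 and 7.22, which were far apart, and without isolation b the difference was -0.24. R54A05 read 8.59 and 8.65 in male floral buds against 8.33 and 7.57.

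Across the tips the members followed more than one pattern. Over the 171 pairs of members, the correlation of the 12 tip group means had a median of 0.22, from -0.83 to 0.95, and a median of 0.006 over pairs of all clone oligos. Above 0.9 there were 5 pairs, of which R07C07 with R35H10 was the closest at 0.95, and 61 pairs lay below 0. The groups behind these correlations share arrays and normalisation, so they are a description only. By the opening letters of the identifiers, 9 of 30 clone oligos with R were members, 3 of 24 with UM and 3 of 40 with V. Single members opened with A, of 8 clone oligos, with F, of 30, with I, of 2, and with M, of 17, and no other opening letters held any.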

How the data were processed

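The deposited table holds 1 value per oligo and array, read here as log2 Cy5 intensity from its range; per the labels, the arrays had 1 colour, and per the design text each oligo was printed in duplicate in a well. Background correction, the joining of duplicate spots, the log base and any earlier normalisation are stated in none of the sources read for this work. Of the table's values, 216 (1.35%) were missing.

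Arrays were quantile normalised and the 2 wells of each isolation averaged. limma 3.58.1 in R 4.3.3 fitted 1 mean for each of the 19 groups over 37 isolations, with Benjamini-Hochberg adjustment over 217 oligos and a call at an adjusted p under 0.05. The small number of arrays limits the precision, and the residual SD had a median of 0.30 over oligos and 0.37 over members.

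The members, comparisons and lists were chosen with earlier results of these data known. Besides the oligos nearest the threshold and the extremes of d and of brightness, the text names, for each comparison, up to 2 called members with the largest rise and 2 with the largest fall that kept 1 sign in all matched groups, or the 2 smallest p where fewer passed. Members listed to complete a count of calls, and any set beside it with values, were chosen after their values were seen. Other scalings, wells as separate arrays, only the compared groups, dim oligos left out, hybridisation sets (average linkage of well differences), the isolation letter as a block and each isolation left out in turn were tried.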

Additional observations from a re-analysis of the deposited data

Results flagged for a closer look

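For some members the gap between basal and upper tips differed between the months by a direct test. It was lower in June than in May for 6 of 19 members and higher for 0, against 10.6% and 13.8% of all oligos. The members were in part chosen for high upper tips, so these counts are a description, from which nothing is read. At age 5 the median gap over members was -1.26 in May and -1.52 in June, and at age 6 it was -0.08 and -1.41. R74E10 differed by -3.95 and V059D02 by -2.37, and the V059D02 call was lost with each isolation left out. With the hybridisation set as a term 4 members were called, among 23 called oligos of 217, against 53 called oligos without that term. The age difference also differed between vegetative buds and upper tips by a direct test. It was lower in buds for 11 of 19 members and higher for 1, against 11.1% and 12% of all oligos. The difference was -1.91 for R74E10, -1.49 for R35H10 and 0.74 for V021F11, whose call was lost with wells as separate arrays (limma adjusted p = 0.372). Hybridisation set and month or organ moved together in both tests, and their part in the results was not tested where the set term could not be fitted.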

How the results depend on the processing

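With a replicate block for the isolation letter, the number of members called was 5 in place of 4 for age in June upper tips and the same in the other comparisons, for example 13 for basal against upper tips. The letters gave no sign of pairing, since the deviations of isolation a correlated between groups with a median of -0.0096 over 153 pairs of groups (-0.27 to 0.30). For male floral against male vegetative buds, 5 members were called, 2 as deposited, 2 with arrays centred on their median, 3 without the dimmest oligos and 3 within 1 hybridisation set. For June against May tips, 10 were called (81 of 217 oligos), 1 within a set (1 of 217) and 1 without age 1 with the set term (11 of 217). The fit within a set held a single isolation of each month, and F003P03Y was at 0.00443 there. For age in May upper tips, 2 were called, 1 as deposited, 1 with median centring, 0 with only its groups and 0 within a set. For age in June upper tips, 4 were called, 0 with only its groups and 0 within a set. The rule gave 30 members with median centring and 30 with upper tips alone, each holding all 19, and 26 as deposited, without R48C03 (-0.70) and F003P03Y (-0.79). Leaving out 1 isolation at a time gave 2 to 3 called members for male floral against male vegetative buds, 0 to 1 for the floral buds, 9 to 11 for month, 12 to 14 for position, 3 to 7 for the month difference in position, 9 to 11 for age in buds, 0 to 2 for age in May, 3 to 5 for age in June and 11 to 14 for the age difference. For V059D02 in floral buds the difference ran from -0.24 without isolation b of unstated sex to 4.03 without isolation a, with 1 member called in the latter. Without scaling, the median of all oligos moved from -0.08 to 0.14 for male floral against male vegetative buds and from 0.12 to -0.02 for position, and with median centring from 0.05 to -0.11 for the month difference in position and from 0.02 to -0.14 for d. The set term could not be fitted for month, age in June or the age difference, nor could the fits without the lone June upper isolation of age 5.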
